A study of Mus musculus with 6 samples.

Results

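The genes described here encode proteins of the cytosolic ribosome. They were taken as the array's probe sets whose only gene symbol is Rpl or Rps followed by a number and at most a letter a, x or l and a further digit, or is Rplp0, Rplp1, Rplp2 or Rpsa, with 1 probe set kept per gene, the one with the highest mean over the 6 libraries. This gave 49 genes of the 18193 genes measured, 23 of the small and 26 of the large ribosomal subunit. The 3 libraries labelled EGFP-positive came from cells named colonic neurons, and the 3 libraries labelled EGFP-negative from cells named myenteric cells, both sorted by fluorescence from the colon of Mapttm1(EGFP)Klt/J mice. In this strain the green fluorescent protein EGFP is made from the locus of Mapt, the gene of the neuronal microtubule protein tau. All mice had an injection of Alexa Fluor 647-coupled cholera toxin subunit B into the celiac ganglion, meant to label colonic neurons with fibres to it, with tissue taken 3 to 4 days afterwards. Each library pooled cells of 2, 4 or 6 mice, and the labels do not say which library had which number.

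The cytosolic ribosome translates messenger RNA. Its small subunit reads the message and its large subunit joins the amino acids, and each ribosomal protein is usually present in a single copy per ribosome. Many ribosomal protein messages begin with a cytosine followed by a run of pyrimidines, the 5′ terminal oligopyrimidine (TOP) start, through which the mTOR kinase pathway regulates their translation as a group. Some ribosomal proteins have a second gene, a paralog, which in several cases is used in particular tissues such as muscle or testis.

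The start regions of 7 of these genes are shown because a pyrimidine run at the start is known from many ribosomal protein genes and was no part of the choice of genes here. Each is 60 bases of RefSeq sequence on GRCm38.p6, 45 before and 15 from the annotated transcription start, and the capitals mark the longest run of C and T within 15 bases of the start on either side. Rps9, Rpl37 and Rps24 are shown for their low values in the EGFP-positive libraries, Rplp2 as a stalk protein, Rpl7a for the length of its run, Rpl27a as a gene with no lower EGFP-positive mean, and Rpl3l as a paralog near background.
Rps9, chr7:3703996-3704055, plus strand: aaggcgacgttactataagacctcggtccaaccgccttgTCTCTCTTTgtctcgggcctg
Rpl37, chr15:5116568-5116627, plus strand: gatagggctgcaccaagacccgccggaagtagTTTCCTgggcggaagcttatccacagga
Rps24, chr14:24490633-24490692, plus strand: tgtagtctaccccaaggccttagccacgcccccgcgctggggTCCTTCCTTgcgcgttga
Rplp2, chr7:141447606-141447665, plus strand: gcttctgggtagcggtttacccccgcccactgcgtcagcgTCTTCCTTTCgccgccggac
Rpl7a, chr2:26910762-26910821, plus strand: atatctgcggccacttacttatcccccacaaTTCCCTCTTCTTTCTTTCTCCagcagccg
Rpl27a, chr7:109519150-109519209, plus strand: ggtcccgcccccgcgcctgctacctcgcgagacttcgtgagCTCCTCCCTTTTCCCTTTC
Rpl3l, chr17:24727781-24727840, plus strand: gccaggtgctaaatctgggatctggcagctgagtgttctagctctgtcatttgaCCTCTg

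The run was 21 bases long at Rpl7a, 19 at Rpl27a, 10 at Rplp2, 9 at Rps9 and Rps24, 6 at Rpl37 and 5 at Rpl3l. At Rpl27a it reached the last base shown, so 19 counts only the part within the window. Of the 49 genes, 43 had a start region in the RefSeq table, and 19 of these (44.2%) had a run of at least 8 pyrimidines, against 3760 of all 27025 genes with such a region (13.9%). A C at the start base followed by 4 pyrimidines was found in 8 of the 43 (18.6%) and in 3.01% of all genes. The longest run was 2 to 21 bases long over the 43 genes, and 19 of them reached 8 bases.

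Motifs were searched on both strands in the 300 bases from 250 before to 50 after the start. The letters CCGGAAG, a core that ETS-family factors bind, were present in 21 of the 43 regions (48.8%) and in 9.93% of all regions. GCCATNTT, a core of YY1 sites, was in 7 (16.3%), against 6.96% of all regions, and TATAAA was in 6 (14.0%), against 15.7% of all regions. These are matches of letters, and binding was not measured.

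Before the group values, the libraries were checked against their labels. Mapt itself, in log2 units as deposited, had values of 1.43, 1.32 and 5.55 for EGFP-positive and 1.44, 1.64 and 1.38 for EGFP-negative libraries. Only EGFP-positive replicate 3 was clear of the background, which the bacterial control TrpnX set at 1.00 to 1.48. Mapt thus does not bear out the label of EGFP-positive replicates 1 and 2. Whether the EGFP allele still makes a message that the Mapt probe set reads was not examined, so low Mapt alone cannot decide the label. What the difference between the groups says of neurons is in doubt. EGFP-positive and EGFP-negative stand below for the libraries so labelled. The mean of 15 pan-neuronal markers was highest in EGFP-positive replicate 3. It was 3.15, 3.05 and 6.27 in EGFP-positive and 3.23, 3.40 and 3.59 in EGFP-negative libraries. All 15 had a higher EGFP-positive mean, with groups that overlapped in each, and Elavl2 and Elavl3 were near background in all 6 libraries. Macrophage markers were lower in the EGFP-positive group for 12 of 12 genes, with means of 6.61, 3.59 and 2.36 in EGFP-positive libraries and 8.39, 8.56 and 6.82 in EGFP-negative libraries. Lymphocyte markers had lower EGFP-positive means for 8 of 8 genes, endothelial markers for 6 of 6 and interstitial cell of Cajal markers for 3 of 3. Enteric glia markers had higher means for 8 of 8. Smooth muscle, fibroblast-like, epithelial and mesothelial markers were mixed in direction. Of all genes, 53.6% had a lower EGFP-positive mean, and limma called 0 in any marker list. The hybridisation controls, which are meant to be added in equal amounts to every array, averaged 11.02, 9.97 and 10.44 in EGFP-positive libraries and 12.71, 10.26 and 9.51 in EGFP-negative libraries, so EGFP-negative replicate 1 stood highest.

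The question the design poses for these genes is whether their messenger RNA differs between the cells labelled EGFP-positive and those labelled EGFP-negative. Of the 49 genes, 46 had a lower mean in the EGFP-positive group, against 53.6% of all genes. Their median log2 difference, EGFP-positive minus EGFP-negative, was -0.36, against -0.02 over all genes. In 18 of the 49 (36.7%) all EGFP-positive values lay below all EGFP-negative values, against 6.04% of all genes, and in 0 did they lie above (3.07% of all genes). No single gene passed the test: limma with Benjamini-Hochberg adjustment over all 18193 genes called 0 of the 49 at an adjusted p of 0.05, and 0.0% of all genes. The lowest adjusted p among the 49 was 0.951. The 49 genes moved together, with a median pairwise Pearson r of 0.78 over the 6 libraries. The counts of genes are therefore not counts of independent observations.

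At an unadjusted limma p under 0.05, 10 of the 49 genes had lower values in the EGFP-positive group, against 3.43% of all genes, and 0 had higher values, against 1.48% of all genes. With the replicate number as a block, since same-numbered libraries deviated together, 22 were below that level, against 4.54% of all genes, and 0 passed after adjustment. Other settings lowered the count. It was 4 with arrays centred on probe sets above 6, against 2.86% of all genes. With both number 1 libraries left out it was 1, against 4.74%. In these bulk samples, fewer cells of a type and less RNA per cell cannot be told apart.

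Of the 49 genes, 45 were above background, defined as a mean at least 1 log2 unit over the highest TrpnX value. Averaged over these genes, the level was 10.35, 10.36 and 10.02 in EGFP-positive libraries, against 10.71, 10.59 and 10.48 in EGFP-negative libraries. The groups of means did not overlap. The means of the other probe sets above 10, those without a ribosomal protein symbol, also did not overlap. They were 10.82, 10.83 and 10.73 in EGFP-positive and 10.95, 10.89 and 10.84 in EGFP-negative libraries. EGFP-positive replicate 3 held the lowest value for 37 of the 45 genes and EGFP-negative replicate 1 the highest value for 30. EGFP-positive replicate 3 was also the library with the highest Mapt value and pan-neuronal marker mean and with the lowest macrophage marker mean, and the part of cell composition in the ribosomal protein values was not tested. Left without EGFP-positive replicate 3, the median difference of the 49 genes was -0.25, with 45 below 0 and 18 without overlap (9.67% of all genes). Without EGFP-negative replicate 1 it was -0.31, with 46 below 0 and 20 without overlap (15.1% of all genes).

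**Figure D1:**
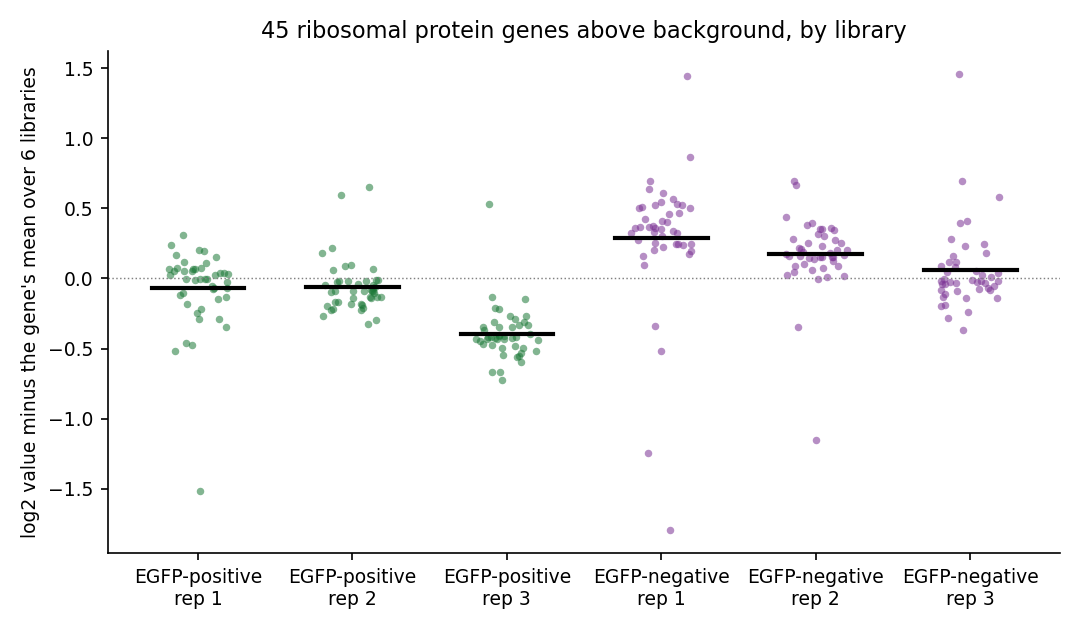
Each point is 1 of the 45 ribosomal protein genes above background in 1 library, and the vertical axis is its log2 value minus that gene's own mean over the 6 libraries. Black lines are means over the genes, at -0.07, -0.06 and -0.40 in EGFP-positive replicates 1, 2 and 3 and at 0.29, 0.17 and 0.06 in EGFP-negative replicates 1, 2 and 3.

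Compared by replicate number, 44 of the 49 genes were lower in the EGFP-positive library of pair 1, 45 in pair 2 and 46 in pair 3. The median differences were -0.38, -0.27 and -0.41, against 0.02, -0.03 and -0.04 over all genes. In all 3 pairs, 39 genes were lower, against 16.2% of all genes.

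Ribosomal protein messages are among the most abundant of a cell, so genes of similar brightness were set beside them. All 34 of the 49 genes with a mean above 10 had a lower EGFP-positive mean, with a median difference of -0.38 and 12 that did not overlap (35.3%). Of the 173 other genes above 10, 62.4% were lower, with a median of -0.08, and 8 did not overlap (4.62%). Limma called 0 in either set.

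The small subunit had 21 genes above background, 20 of them below 0, with a median difference of -0.38 and 5 that did not overlap. The large subunit had 24, with 23 below 0, a median of -0.36 and 12 that did not overlap. Over all genes, 53.6% were below 0 and 6.04% lower without overlap. The difference between the subunits in this count was not tested. Ranked by difference, the genes of both subunits were interspersed, and most lay between -0.5 and -0.2.

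**Figure D2:**
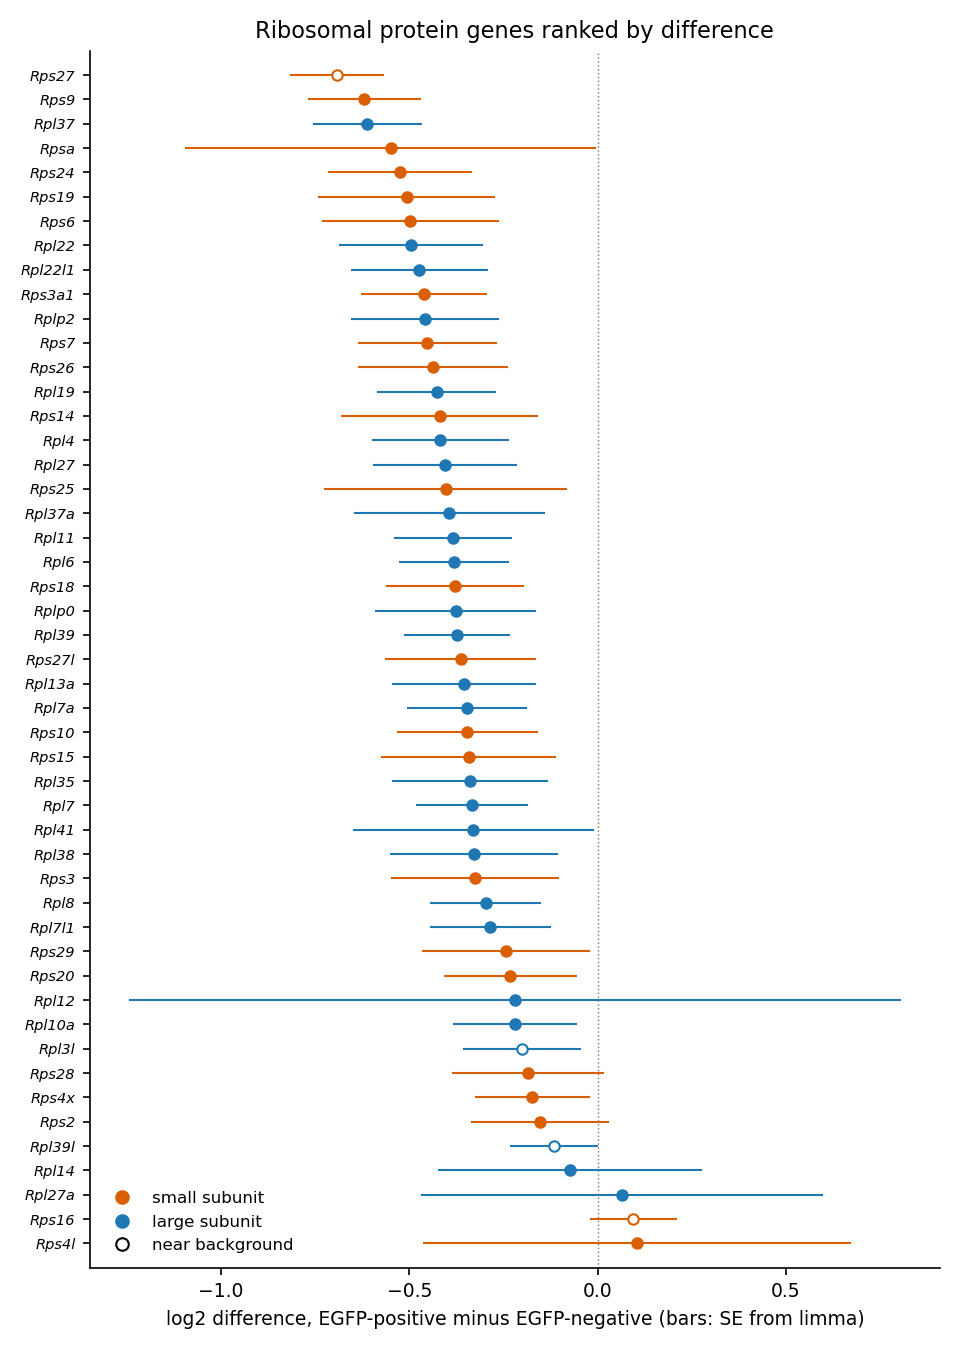
All 49 ribosomal protein genes are ranked by log2 difference, EGFP-positive minus EGFP-negative, on the horizontal axis, with bars of 1 standard error (SE) from limma; orange marks the small subunit, blue the large subunit and open circles the 4 genes near background. The points run from -0.69 at Rps27 to 0.10 at Rps4l, and 46 lie left of 0.

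Among small subunit proteins, Rps9, which takes part in decoding accuracy, had the lowest difference of the genes above background. It read 10.56, 10.75 and 10.29 in EGFP-positive and 11.17, 11.21 and 11.09 in EGFP-negative libraries, a difference of -0.62 (SE 0.15). The 3 EGFP-negative values lay close together and all above the EGFP-positive values. Rps24, in which mutations cause Diamond-Blackfan anaemia in humans, read 12.05, 11.95 and 11.75 in EGFP-positive and 12.75, 12.44 and 12.15 in EGFP-negative libraries, also without overlap (-0.52, SE 0.19). Rps19, the most often mutated gene in that anaemia, read 10.98, 10.89 and 10.32 in EGFP-positive and 11.34, 11.42 and 10.96 in EGFP-negative libraries (-0.51, SE 0.23). There EGFP-negative replicate 3 lay just below EGFP-positive replicate 1, so the groups overlapped.

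Rps6, the small subunit protein phosphorylated by the S6 kinases downstream of mTOR, read 7.06, 6.90 and 6.27 in EGFP-positive and 7.35, 7.09 and 7.27 in EGFP-negative libraries (-0.50, SE 0.23). The groups did not overlap, by a narrow margin between EGFP-positive replicate 1 and EGFP-negative replicate 2. Its other probe set had a difference of 0.015, and the mean of both gave -0.24. Rps3, which lies at the entry of the messenger RNA channel and also acts in DNA repair, read 11.26, 11.14 and 10.56 in EGFP-positive and 11.32, 11.47 and 11.14 in EGFP-negative libraries (-0.33, SE 0.22). Its groups overlapped, with EGFP-positive replicate 3 apart from the rest.

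Rpsa, also known as the laminin receptor precursor, rested on 1 library. It read 12.10, 11.61 and 11.27 in EGFP-positive and 13.38, 11.59 and 11.65 in EGFP-negative libraries (-0.55, SE 0.55). Without EGFP-negative replicate 1 the difference was 0.037.

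Rps28, Rps4x and Rps2 had the smallest differences of the small subunit genes below 0. Rps28 read 12.54, 12.21 and 11.88 in EGFP-positive and 12.51, 12.46 and 12.22 in EGFP-negative libraries (-0.18, SE 0.20). Rps4x, the X-linked copy of Rps4, read 12.05, 12.01 and 11.84 in EGFP-positive and 12.36, 12.14 and 11.93 in EGFP-negative libraries (-0.17, SE 0.15). The groups of all 3 genes overlapped. Rps2 read 11.56, 11.59 and 11.18 in EGFP-positive and 11.84, 11.54 and 11.41 in EGFP-negative libraries (-0.15, SE 0.18).

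Among large subunit proteins, Rpl37 read 7.35, 7.56 and 7.26 in EGFP-positive and 8.10, 8.09 and 7.82 in EGFP-negative libraries (-0.61, SE 0.14). All EGFP-positive values were lower than all EGFP-negative values. Rpl8, a protein near the peptidyl transferase centre, read 10.84, 10.74 and 10.40 in EGFP-positive and 10.97, 10.93 and 10.97 in EGFP-negative libraries (-0.30, SE 0.15), again without overlap. Rpl10a read 12.00, 11.84 and 11.61 in EGFP-positive and 12.26, 11.94 and 11.91 in EGFP-negative libraries (-0.22, SE 0.16). Rpl10a and Rpl8 were, with Rps4x and Rps2, the genes with the smallest spread over the 6 libraries among those above background.

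The stalk of the large subunit, which recruits the elongation factors, is built on Rplp0 with the acidic proteins Rplp1 and Rplp2. Rplp0 read 12.20, 11.98 and 11.70 in EGFP-positive and 12.66, 12.30 and 12.06 in EGFP-negative libraries (-0.38, SE 0.21). Rplp2 read 12.45, 12.17 and 11.85 in EGFP-positive and 12.80, 12.62 and 12.43 in EGFP-negative libraries (-0.46, SE 0.20). In both, every EGFP-positive library was below the EGFP-negative library of its number, while EGFP-positive replicate 1 reached above the lowest EGFP-negative value. Rplp1 was not analysed here.

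Of the large subunit genes with wide spread, Rpl12, which sits at the base of the stalk, read 2.72, 4.89 and 4.77 in EGFP-positive and 2.44, 4.90 and 5.70 in EGFP-negative libraries (-0.22, SE 1.03). Both number 1 libraries stood far below the other 4 on this probe set. Rpl14 read 4.41, 4.43 and 3.70 in EGFP-positive and 3.70, 4.26 and 4.80 in EGFP-negative libraries (-0.07, SE 0.35). Rpl27a read 7.94, 7.71 and 7.31 in EGFP-positive and 8.49, 6.47 and 7.81 in EGFP-negative libraries (0.07, SE 0.53). For these genes the spread within a group exceeded the difference between the groups.

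**Figure D3:**
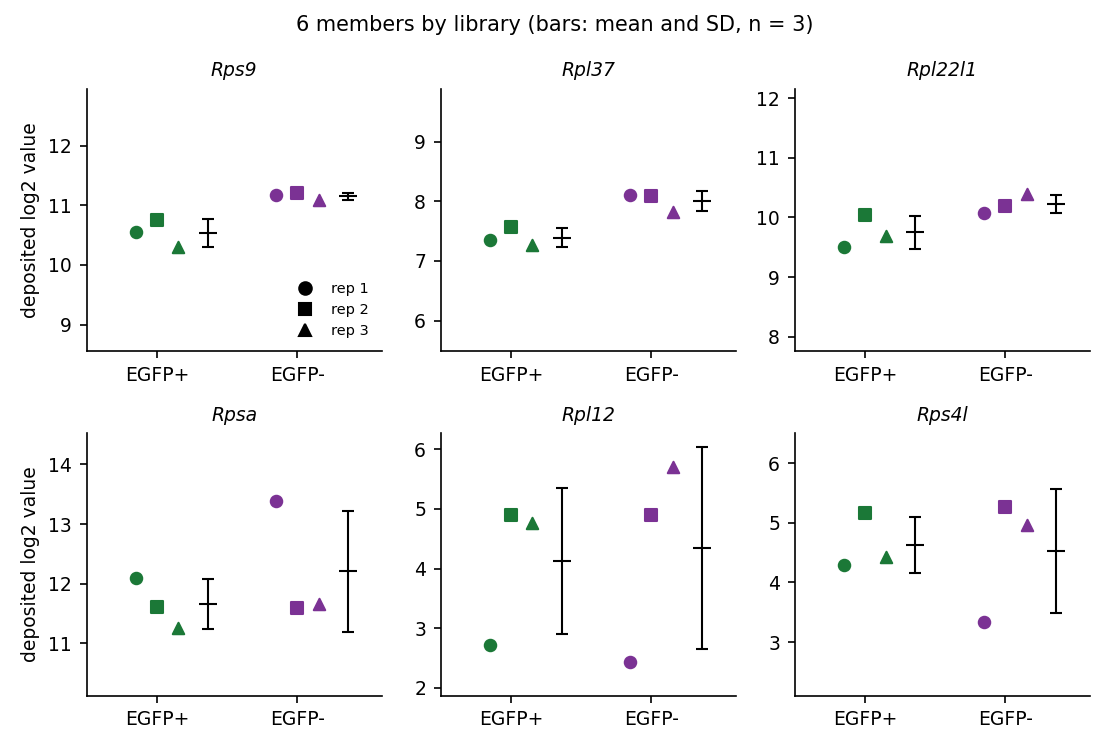
Deposited log2 values of Rps9, Rpl37, Rpl22l1, Rpsa, Rpl12 and Rps4l are plotted by library, EGFP-positive in green and EGFP-negative in purple, with marker shapes for the replicate number and bars for the mean and SD (n = 3). The top row shows genes whose groups do not overlap; in the bottom row a number 1 library stands apart in the EGFP-negative group, at 13.38 for Rpsa, 2.44 for Rpl12 and 3.33 for Rps4l.

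Paralogs were set beside their ordinary partners. Rpl22, an RNA-binding large subunit protein, read 11.49, 11.51 and 11.18 in EGFP-positive and 12.19, 11.85 and 11.63 in EGFP-negative libraries (-0.50, SE 0.19). Its paralog Rpl22l1 read 9.51, 10.05 and 9.69 in EGFP-positive and 10.08, 10.20 and 10.39 in EGFP-negative libraries (-0.47, SE 0.18). Neither gene's groups overlapped, so both genes of the pair were lower in every EGFP-positive library. Rpl7 read 11.53, 11.51 and 11.12 in EGFP-positive and 11.78, 11.71 and 11.67 in EGFP-negative libraries (-0.33, SE 0.15), and its relative Rpl7l1 read 6.52, 6.51 and 6.11 in EGFP-positive and 6.72, 6.52 and 6.75 in EGFP-negative libraries (-0.29, SE 0.16). Both also did not overlap, Rpl7l1 by a very narrow margin.

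Rps27l, a paralog of Rps27 known as a p53 target, read 9.68, 9.57 and 9.16 in EGFP-positive and 10.08, 9.80 and 9.62 in EGFP-negative libraries (-0.36, SE 0.20). Rps4l, a relative of Rps4x, read 4.28, 5.17 and 4.43 in EGFP-positive and 3.33, 5.27 and 4.97 in EGFP-negative libraries (0.10, SE 0.57). Rps4l had the highest difference of the 49, within its own spread. Rpl39, a short protein of the exit tunnel, read 4.22, 4.28 and 4.32 in EGFP-positive and 4.71, 4.81 and 4.42 in EGFP-negative libraries (-0.37, SE 0.14), without overlap.

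The 4 genes near background were Rps27, Rps16, Rpl3l and Rpl39l. Rpl3l, known from heart and skeletal muscle, read 1.46, 1.46 and 1.46 in EGFP-positive and 1.95, 1.58 and 1.46 in EGFP-negative libraries. Rpl39l, known from testis, read 1.32, 1.19 and 1.13 in EGFP-positive and 1.43, 1.23 and 1.32 in EGFP-negative libraries. These are values at the level of a control with no target. Rps27 read 1.95, 1.86 and 1.68 in EGFP-positive and 2.50, 2.62 and 2.45 in EGFP-negative libraries (-0.69, SE 0.12), and Rps16 read 1.17, 0.98 and 0.95 in EGFP-positive and 0.89, 1.01 and 0.91 in EGFP-negative libraries.

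Probe sets that carry these symbols beside others averaged 11.9 for Rps27 and 11.4 and 12.6 for Rps16, so the dim values do not show that either gene was silent, and the bright ones cannot be credited to it. In all, 9 genes had such a probe set reading over 1 log2 unit higher, namely Rpl12, Rpl14, Rpl27a, Rpl37, Rpl39, Rps6, Rps16, Rps25 and Rps27, and the levels given for them here are those of their single-symbol probe set. Probe sets with several symbols, left out by the rule, numbered 110, and 105 of them had a lower EGFP-positive mean, with a median difference of -0.36. In 47 (42.7%) the groups did not overlap with EGFP-positive lower, and in 1 with EGFP-positive higher, against 4.96% and 4.9% of the single-symbol probe sets of all levels. The median level of the 110 was 11.0. Of the probe sets above 10 without a ribosomal protein symbol, 63.4% had a lower EGFP-positive mean and 7.80% were lower without overlap. The library means of the 110 probe sets with several symbols were 9.24, 9.26 and 8.96 in EGFP-positive and 9.61, 9.46 and 9.35 in EGFP-negative libraries. They can read several ribosomal protein genes or their processed pseudogene copies and were not assigned to any one gene. Rps27a, Rpl3, Rpl10 and Rpl10l were not analysed here. The name pattern matched 28 symbols that occurred only on probe sets with several symbols. The genes analysed thus do not cover all ribosomal proteins.

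Of the 49 genes, 24 had more than 1 single-symbol probe set, and for 10 of them the probe sets disagreed in sign. These were Rpsa, Rps6, Rpl22, Rps10, Rpl35, Rpl41, Rps3, Rpl7l1, Rps4x and Rpl27a. As the mean of all probe sets, the difference was -0.27 for Rpsa, -0.32 for Rpl22, -0.023 for Rps3, -0.10 for Rpl7l1 and -0.067 for Rps4x. Over all 105 single-symbol probe sets, 91 had a difference below 0, against 49.7% of all single-symbol probe sets. In 36 the groups did not overlap with EGFP-positive lower, against 4.96% of all, and in 1 with EGFP-positive higher, against 4.9% of all.

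The genes with and without a long pyrimidine run at the start had nearly the same median difference. It was -0.38 in the 18 above background with a run of at least 8 bases, with 7 that did not overlap. In the 21 without such a run it was -0.38, with 8 that did not overlap. Of all genes, 6.04% were lower without overlap. With the letters CCGGAAG the median was -0.38 over 20 genes, and without them -0.35 over 19.

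Other genes of the translation machinery were described from lists, and limma called 0 genes in each. The lists had lower medians than all genes in every case but mTOR and translational control. Of 76 mitochondrial ribosomal proteins, which make up the separate ribosome of mitochondria, 66 were below 0 (53.6% of all genes were), with a median of -0.24 and 20 lower without overlap (26.3%, against 6.04% of all genes). They ran from -0.72 for Mrpl52 to 0.32 for Mrpl10. Mrpl52 rested on EGFP-negative replicate 1, with 9.02, 9.16 and 9.64 in EGFP-positive and 11.74, 9.16 and 9.08 in EGFP-negative libraries.

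Fau, whose product is a ubiquitin-like protein fused to a small subunit protein, read 11.24, 10.86 and 10.61 in EGFP-positive and 11.83, 11.47 and 11.03 in EGFP-negative libraries (-0.54, SE 0.27). Its groups overlapped. The list of elongation factors and related genes had 6 measured, all below 0, with a median of -0.24. The factors proper were Eef1a1 at -0.23, Eef1b2 at -0.37, Eef1d at -0.25 and Eef2 at -0.16. The list ran from -0.53 for Eef1e1, an auxiliary protein of the tRNA synthetase complex, to -0.09 for Eef2k, the kinase that inhibits eEF2. Of 9 other messages with a TOP start, 7 were below 0, with a median of -0.21. The lowest was the non-coding snoRNA host Snhg1 at -0.53 and the highest the intermediate filament gene Vim at 0.06. Snhg1, Gas5 and Hnrnpa1, 3 of the 9, were lower without overlap, as were 6.04% of all genes.

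Of 23 initiation factors, 21 were below 0, with a median of -0.12 and 4 lower without overlap, where 53.6% and 6.04% of all genes were. Eif3m, a subunit of the eIF3 complex, read 7.03, 7.43 and 7.11 in EGFP-positive and 8.01, 7.84 and 7.84 in EGFP-negative libraries (-0.71, SE 0.15), and Eif3c was highest at 0.07. Of 30 ribosome biogenesis genes, 20 were below 0, with a median of -0.13, from -0.48 for Nop10, a protein of the H/ACA particles, to 0.27 for Bop1, a pre-60S assembly factor. Of 13 genes of mTOR signalling and translational control, 6 were below 0, with a median of 0.02. They ran from -0.34 for Eif4ebp1, which holds back the cap-binding protein eIF4E, to 0.73 for Tsc1, an inhibitor of mTOR signalling. Of these, 0 were without overlap, against 6.04% of all genes lower and 3.07% higher.

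**Figure D4:**
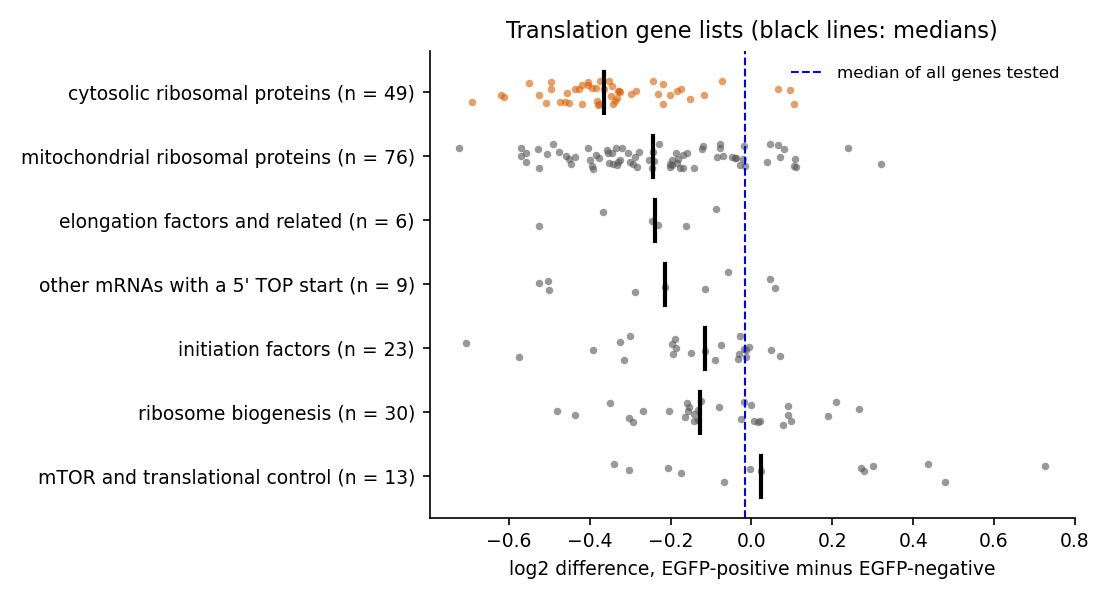
Each point is 1 gene, placed by its log2 difference, EGFP-positive minus EGFP-negative, with the lists down the page and black lines at their medians; the dashed blue line is the median of all genes tested, -0.02. Of the lists plotted, the cytosolic ribosomal proteins have the lowest median, -0.36, and mTOR and translational control the highest, 0.02; Fau, alone in its list at -0.54, is not plotted.

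The median of the 49 genes stayed below that of all genes under each of the 18 alternative settings that were run. Its value nearest to 0 was -0.13, after a second quantile normalisation, with 42 of 49 below 0 and 10 without overlap, against 7.78% of all genes. There the median minus that of all genes shrank to -0.094, against -0.35 on the deposited values. Centring the arrays on the other bright probe sets, those above 10 without a ribosomal protein symbol, gave -0.27, with all genes at 0.08 and 13 without overlap (3.29% of all genes). Centring on all probe sets above 6 left 10 of the 49 without overlap (4.78%). The probe sets free of the suffixes x, s and a, which mark probes shared between transcripts, covered 26 of the genes, with a median of -0.21 and 8 without overlap (5.73%). With both number 1 libraries left out the median was -0.35, and 35 did not overlap, against 21.8% of all genes. The count was 33 without EGFP-positive replicate 1 (11.6%) and 36 without EGFP-negative replicate 3 (11.1%). Limma called 2 genes (0.011%) without EGFP-positive replicate 1, and 0 of them were ribosomal protein genes.

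**Figure D5:**
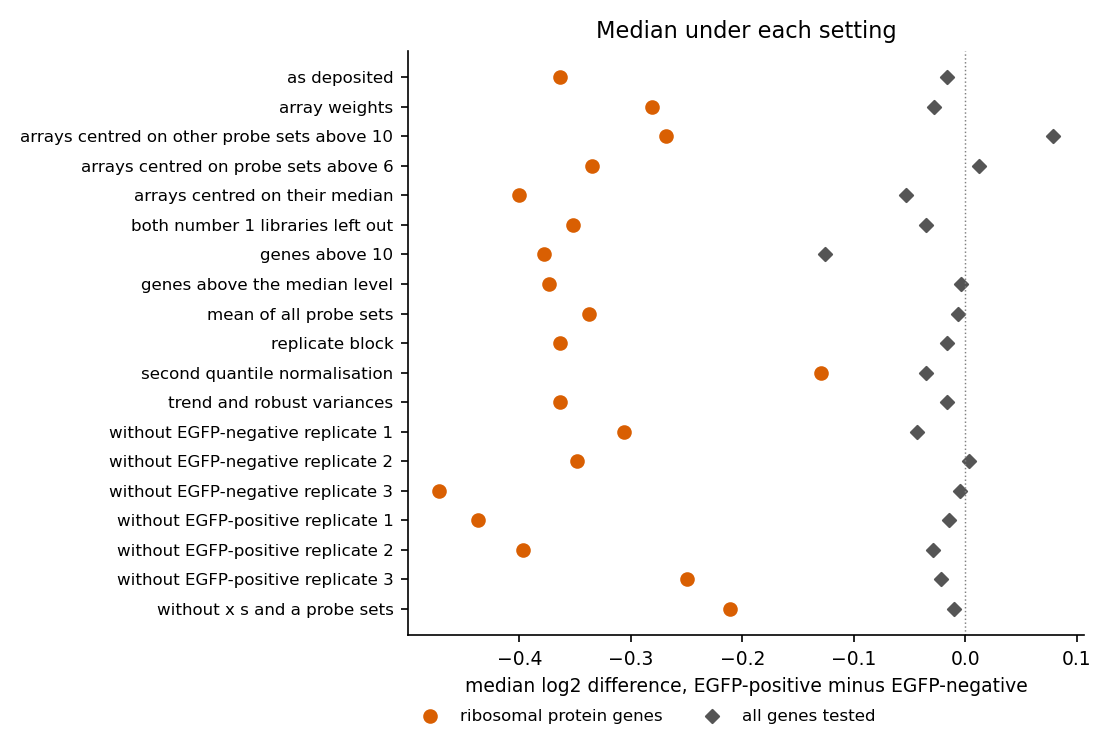
The horizontal axis is the median log2 difference, EGFP-positive minus EGFP-negative, of the ribosomal protein genes (orange circles) and of all genes tested (grey diamonds), with 1 row per setting. The circles run from -0.47, without EGFP-negative replicate 3, to -0.13, after a second quantile normalisation.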

How the data were processed

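RNA of 3 EGFP-positive and 3 EGFP-negative sorted samples was labelled from about 50 ng and measured on Affymetrix 430.2 mouse arrays with 1 colour. The deposited log2 values, 1 per probe set, were made by the authors with RMA, per the submitters' processing notes; its version is not given in the sources used here. The columns did not share 1 distribution, with upper quartiles of 4.08 to 4.86, so the form of RMA is uncertain. The number of arrays limits the precision.

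Probe sets were named from the platform annotation, and those with several symbols or none stayed out. For 18193 genes, a linear model was fitted to the deposited values (limma 3.58.1, R 4.3.3, default eBayes, two-sided), with no low-value filter, Benjamini-Hochberg adjustment and a threshold of 0.05. The fit was tested on simulated data with independent values and changes larger than those of the ribosomal protein genes. That test does not show how the fit behaves for differences as small as theirs. Figures used Python 3.11.15 and matplotlib 3.10.9. The spread behind each p of the main fit is that between pools of mice. In the fit with the replicate number as a block, it is that of the differences between same-numbered libraries.

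Replicate numbers 1 to 3 occur in both groups. The deviations from the group means of same-numbered libraries correlated at 0.36, 0.32 and 0.42. The numbers were therefore taken to pair the samples, on the data and not on the labels. This pairing entered only the block fit and the comparisons by replicate number. The main fit, which gave every SE, had no block.

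The ribosomal protein genes and the other gene lists were chosen with earlier results of these data known. Genes named were the 6 highest and 6 lowest differences and the 4 largest and 4 smallest spreads above background, the paralogs and their partners, the stalk genes, Rpsa, Rps6, Rps19, Rps3, those near background, and the extremes of each other list. Rpl7a, Rps10, Rps25, Rpl35, Rpl41, Gas5, Hnrnpa1 and the elongation factors between the extremes, outside this rule, were chosen after their values were seen.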

Additional observations from a re-analysis of the deposited data

How the results depend on the processing

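The count of ribosomal protein genes without overlap and lower in the EGFP-positive group was 18 (6.04% of all genes). It became 10 with arrays centred on probe sets above 6 (4.78%) and 10 after a second quantile normalisation (7.78%). It was 8 without probe sets of suffix x, s or a, which leaves 26 genes (5.73%). With both number 1 libraries left out it was 35 (21.8%). The count higher became 1 after the quantile normalisation and 1 with arrays centred on other probe sets above 10. The share of all genes higher without overlap is not given for these settings. On the deposited values it was 3.07%. The median difference was -0.13 after the quantile normalisation and -0.21 without those suffixes. With array weights the other TOP messages had a median of -0.072, and with centring above 10 the initiation factors had -0.020. The sign turned for Rps4l (-0.10 with array weights, -0.32 without both number 1 libraries, -0.011 after quantile normalisation), Rpl14 (0.023 with centring above 10), Rpl27a (-0.085 as mean of all probe sets), Rps3 (0.080 without those suffixes) and, after quantile normalisation, Rpl10a (0.038), Rps2 (0.14), Rps28 (0.048) and Rps4x (0.073). The cause was not tested.

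With 1 library left out at a time, the count lower and without overlap ran from 18 to 36, the count higher from 0 to 1, and the genes past the threshold over the whole array from 0 to 2, the 2 without EGFP-positive replicate 1. The count lower was 33 without EGFP-positive replicate 1 (11.6% of all genes) and 36 without EGFP-negative replicate 3 (11.1%). It was 18 without EGFP-positive replicate 3 (9.67%). With all libraries, 6.04% of all genes were lower and 3.07% higher without overlap. Differences ran from -0.49 to 0.48 for Rps4l, -0.86 to 0.037 for Rpsa, -1.17 to 0.48 for Rpl12, -0.49 to 0.52 for Rpl27a and -0.35 to 0.20 for Rpl14. Of the 28 ribosomal protein genes named, 18 kept their sign under every setting. With the replicate number as a block, 0 genes passed the threshold and the median stayed -0.36. There 22 in place of 10 ribosomal protein genes had an unadjusted p under 0.05 (4.54% of all genes, lower). That count was 15 as mean of all probe sets (3.53%) and 14 with arrays centred on their median (3.87%). It fell to 5 with centring above 10 (2.13%) and 4 with centring above 6 (2.86%). Among genes above the median level it was 2 (2.31%), and without both number 1 libraries 1 (4.74%). Alternatives centred on probe sets above 10, restricted to genes above 10 or without both number 1 libraries were added after seeing the data.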

Other observations

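The array's 18S ribosomal RNA control probe sets, which read the RNA of the small subunit, averaged 9.51, 9.55 and 9.63 in EGFP-positive libraries and 11.73, 6.38 and 9.21 in EGFP-negative libraries. EGFP-negative replicates 1 and 2 thus lay on either side of all EGFP-positive libraries, while the mean of the ribosomal protein genes in both was above every EGFP-positive library. EGFP-negative replicate 1 was also the highest library for the hybridisation controls, at 12.71, and the poly-A controls, at 9.67. What the 18S probe sets say of the amount of ribosomal RNA in the cells was not tested. The 3′ minus 5′ difference of Gapdh, a measure of RNA integrity and labelling, was 1.29, 1.06 and 0.97 in EGFP-positive and 1.00, 2.47 and 0.77 in EGFP-negative libraries, with EGFP-negative replicate 2 apart from the rest. For beta-actin it was 2.61, 2.15 and 2.40 in EGFP-positive and 2.44, 2.84 and 1.55 in EGFP-negative libraries. There EGFP-negative replicate 2 was highest and EGFP-negative replicate 3 lowest.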
